A study of Mus musculus with 9 samples.

Results

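The NRF2 antioxidant genes described here are 10 mouse genes, Nfe2l2, Nqo1, Hmox1, Gclc, Gclm, Txnrd1, Srxn1, Slc7a11, Gpx3 and Sod3, taken by gene name from the 54532 genes of the deposited expression table. All 10 names were found, and all 10 passed the filter on low counts in every comparison. They were measured by RNA sequencing in 9 libraries of cardiosphere-derived cells, which are cells that grow out of pieces of heart tissue and pass through floating spheres, from C57BL/6 mouse heart ventricle. The 3 pECDC libraries are the untreated primary cells, which the study grew from pieces of ventricular epicardium, the outer cell layer of the heart. The 3 iECDC libraries are the hTERT immortalized, untreated cells at passage 30, called iCDC in the labels. hTERT is the catalytic subunit of human telomerase, and the study delivered it by lentivirus and selected the cells with puromycin. The 3 SBT libraries are labelled as iCDC at passage 30 that had received SB431542, which blocks the type I receptor of TGF-β, for 3 days. For SB431542-treated cells the study's methods instead name an epithelial clone derived from pECDCs. Those methods cover several sequencing data sets, and the study's discussion has epithelial clones found 10 days after treatment. The clone may therefore belong to another data set. Whether the SBT libraries come from iCDC or from 1 clone of other parentage is not settled. They are compared below with both other groups. The labels call the primary libraries P0, whereas the study's methods give a later passage for cultured cells. Nothing in the labels says whether the 3 libraries of a group came from separate cultures, and p-values then measure only the spread between these libraries, which may be technical. The study's methods give fewer biological replicates per condition than there are libraries here, and which libraries they were is not stated. Legends of the study's sequencing figures give n = 3 instead.

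NRF2, encoded by Nfe2l2, is a transcription factor that is kept low by KEAP1, an adaptor that hands it to a ubiquitin ligase for degradation. Oxidants and electrophiles modify KEAP1, NRF2 then accumulates, pairs with small MAF proteins and binds antioxidant response elements, and BACH1 competes for the same elements. Its targets make and recycle glutathione and thioredoxin, break down heme and quinones, and are known in heart cells for their part in survival under oxidative stress. Much of this control acts on the NRF2 protein, which was not measured here.

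The antioxidant response element has the core TGACNNNGC, in which N is any base, and this core was looked for on both strands in the 250 bases before each start site of the RefSeq promoter table, on build GRCm38.p6. The table held entries for 7 of the 10 genes, and those for Hmox1, Gclc and Sod3 were not analysed here. The 7 genes had 9 entries, 1 for each start site. The core was in 3 of these 9, which belong to Gclm, Txnrd1 and Nfe2l2, and in 3338 of all 32851 promoter entries (10.2%, 95% Wilson interval 9.84 to 10.49%). The looser TGANNNNGC, which includes the first core, was also found for Srxn1 and Slc7a11, and was in 6 of the 9 entries and in 35.2% of all entries. Of the 3 start sites of Txnrd1, 1 held the core, 1 the looser core alone and 1 neither. The strict TGACTCAGC was in 0.390% of all entries and in none of the 7 genes, and Nqo1 and Gpx3 held neither of the other cores in these 250 bases. Bases farther before the start sites were not searched. Stretches around 1 match of each of the 5 genes are printed to show what these windows hold in front of genes whose levels are compared below. The capitals mark the match, and each stretch is read 5′ to 3′ along the gene's strand, so that a match on the opposite strand appears as its reverse complement. In Srxn1 the match begins 45 bases before the start site, in Txnrd1 92 bases, in Slc7a11 97 bases, in Gclm 134 bases and in Nfe2l2 240 bases. They lie at chr3:122245383-122245471 on the plus strand for Gclm, chr10:82859074-82859162 on the plus strand for Txnrd1, chr2:152105439-152105515 on the plus strand for Srxn1, chr3:50443662-50443750 on the minus strand for Slc7a11 and chr2:75704855-75704913 on the minus strand for Nfe2l2. Binding was not measured, and a match describes letters only.
Gclm: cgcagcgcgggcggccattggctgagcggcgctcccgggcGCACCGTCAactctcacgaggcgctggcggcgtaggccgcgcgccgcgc
Txnrd1: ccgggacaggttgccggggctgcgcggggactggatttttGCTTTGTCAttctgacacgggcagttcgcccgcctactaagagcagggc
Srxn1: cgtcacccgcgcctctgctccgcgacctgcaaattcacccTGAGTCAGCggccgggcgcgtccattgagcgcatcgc
Slc7a11: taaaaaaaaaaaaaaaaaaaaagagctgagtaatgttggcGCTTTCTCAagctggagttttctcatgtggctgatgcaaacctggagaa
Nfe2l2: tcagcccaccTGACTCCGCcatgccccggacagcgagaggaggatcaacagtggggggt

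Levels are given as FPKM, the fragments scaled by gene length and by the mapped reads of the library that the authors deposited, and differences as log2 fold changes with their standard error (SE) from edgeR's quasi-likelihood test on the deposited counts, with Benjamini-Hochberg adjustment over all genes tested. Total counts per library were between 16568306 and 23951392. 2 libraries stood apart from the others of their group. A chi-square of the counts of each pair of libraries per degree of freedom, near 1 for sampling noise alone, was between 2.70 and 4.61 for pairs without them. It reached 24.9 and 30.8 for the pairs with iECDC replicate 3, and 70.3 and 71.5 for the pairs with SBT replicate 2. Results that rest on these libraries are given with and without them.

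All 6 surface and epicardial markers of these cells (Eng, Thy1, Ly6a, Cd44, Pdgfra and Tbx18) were present in all 9 libraries, with a summed level from 297 to 344 FPKM. Single markers moved under this sum. Cd44 had 67.7 to 78.1 FPKM in iECDCs and 16.6, 35.0 and 17.1 FPKM in SBT replicates 1, 2 and 3, and Ly6a had 5.08 to 7.11 FPKM in iECDCs and 35.35, 16.2 and 37.0 FPKM in SBT libraries. For both genes SBT replicate 2 lay between the other SBT libraries and the iECDC libraries. The 4 endothelial markers summed to at most 0.165 FPKM. The 5 haematopoietic markers summed to 7.16 to 8.52 FPKM in pECDCs, 7.45 to 10.7 FPKM in iECDCs and 7.12 to 9.36 FPKM in SBT cells. Ptprc and Adgre1 were at or near 0, and Csf1r had 3.46 to 7.41 FPKM and did not pass in any comparison. Lyz2 rose from 0.434 to 0.534 FPKM in pECDCs to 2.63 to 3.31 FPKM in iECDCs (log2 fold change 2.55, SE 0.211, edgeR, adjusted p = 9.39e-05). Cd68 had 1.48 to 2.04 FPKM in pECDCs, 0.673 to 1.498 FPKM in iECDCs and 0.862 to 1.06 FPKM in SBT cells. Cd68 did not pass between iECDCs and pECDCs, whose libraries overlapped, but passed as lower in SBT cells than in pECDCs. The 5 cardiomyocyte markers summed to 1.02 to 1.30 FPKM in pECDCs, 1.53 to 2.28 FPKM in iECDCs and 0.328 to 1.07 FPKM in SBT cells. Myh6, Actn2 and Ryr2 were at or near 0, and Tnnt2 was higher in iECDCs than in pECDCs (1.36, SE 0.194, edgeR, adjusted p = 0.00202) and lower in SBT cells than in iECDCs (-3.07, SE 0.478, edgeR, adjusted p = 0.00378). Tnni3 did not follow Tnnt2 and did not pass in either comparison. It had 0.457 to 0.652 FPKM in pECDCs, 0.410 to 0.600 FPKM in iECDCs and 0.277 to 0.858 FPKM in SBT cells. The part of these markers in the results was not tested. Of the 5 epithelial markers, Epcam, Cdh1, Krt8 and Krt18 were at or near 0 in all groups, the SBT libraries included, and the summed level of 22.9 to 38.0 FPKM in SBT libraries was nearly all Krt19.

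In pECDCs the levels per length ran from Hmox1 (311 ± 2.74 FPKM, SD, n = 3) through Txnrd1 (177 ± 2.91), Nqo1 (170 ± 2.12), Srxn1 (68.4 ± 1.91), Nfe2l2 (57.6 ± 0.571), Gclm (30.1 ± 0.808), Gclc (29.9 ± 1.124), Sod3 (14.2 ± 1.20) and Gpx3 (11.4 ± 0.470) to Slc7a11 (0.962 ± 0.0459). Gclc and Gclm, the catalytic and modifier subunits of the enzyme that starts glutathione synthesis, overlapped between libraries, and every other pair of neighbours in this order was separated. In iECDCs the order was Hmox1, Txnrd1, Nqo1, Srxn1, Nfe2l2, Gclm, Gclc, Sod3, Slc7a11 and Gpx3. There the libraries of Txnrd1 and Nqo1 and those of Nfe2l2 and Gclm overlapped. The gene length that the authors used for Slc7a11, 13922 bases, lowers its level on this scale, and it had between 48 and 696 counts per library. Gpx3 had between 8 and 28 counts in iECDC and SBT libraries, and its differences between these groups rest on few reads.

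**Figure D1:**
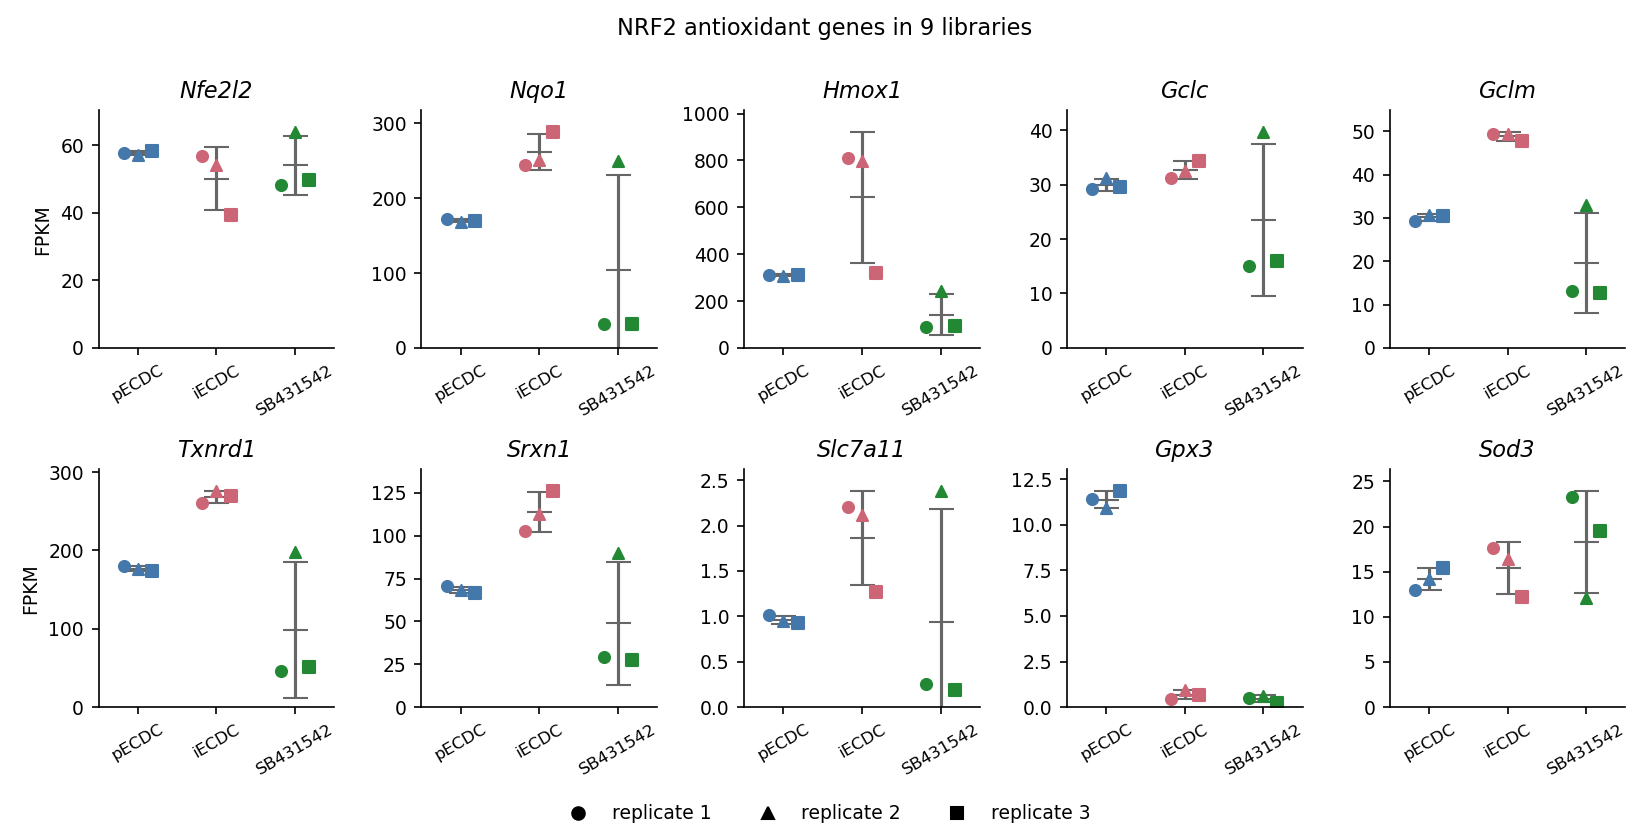
FPKM (vertical axes, from 0) of the 10 NRF2 antioxidant genes in the 3 libraries of pECDC, iECDC and SB431542-treated (SBT) cells. Symbols are replicates, and bars are the mean and SD of 3 libraries, drawn down to 0 at most. In Nqo1, Gclc, Gclm, Txnrd1, Srxn1, Slc7a11 and Hmox1 the triangle of SBT replicate 2 lies well above the other SBT libraries, and in Hmox1 the square of iECDC replicate 3 lies near the pECDC libraries.

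Comparing iECDCs with pECDCs asks how the immortalized cells differ from the primary cells. 6 enzyme and transporter genes, Nqo1, Hmox1, Gclm, Txnrd1, Srxn1 and Slc7a11, were higher in iECDCs, by 1.502-fold to 2.05-fold. Gpx3, a secreted glutathione peroxidase, was 17.3-fold lower. Nfe2l2 itself, Gclc and Sod3 did not pass the test. Of the 10 genes 6 were higher and 1 lower, against 7.21% of all 13752 genes tested that were higher and 9.21% that were lower. The median log2 fold change was 0.60 for the 10 genes and -0.0018 for all genes tested. The libraries of the groups did not overlap for 8 of the 10 genes, which also held for 39.9% of all genes. In either direction 16.4% of all genes passed. Without iECDC replicate 3, 7 of the 10 genes were higher and 1 lower, beside 15.5% and 16.2% of all genes (31.7% together). Without pECDC replicate 1, 2 or 3, 6, 6 and 5 of the 10 passed, beside 7.55%, 7.39% and 7.63% of all genes. All these values come from bulk RNA, in which fewer cells of a kind and less RNA per cell cannot be told apart.

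Nfe2l2 stood at 57.6, 57.0 and 58.1 FPKM in pECDC replicates 1, 2 and 3 and at 56.7, 54.2 and 39.4 FPKM in iECDC replicates 1, 2 and 3. The iECDC libraries were all below the pECDC libraries, but the third carried most of the difference. The log2 fold change was -0.21 (SE 0.122) and did not pass (edgeR, adjusted p = 0.269). Without iECDC replicate 3 it was -0.063 (SE 0.0405, edgeR, adjusted p = 0.270).

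Of the quinone and heme enzymes, Nqo1, which reduces quinones, read 172, 168 and 170 FPKM in pECDCs and 245, 252 and 289 FPKM in iECDCs. All iECDC libraries lay above all pECDC libraries, by a log2 fold change of 0.61 (SE 0.0733, edgeR, adjusted p = 0.000798). Hmox1, the inducible heme oxygenase that opens the heme ring, had 313, 308 and 312 FPKM in pECDCs and 811, 797 and 320 FPKM in iECDCs. iECDC replicates 1 and 2 were far above the primary cells, and replicate 3 was within a few percent of them. The log2 fold change was 1.03 (SE 0.287, edgeR, adjusted p = 0.0393), and it passed under 7 of 15 alternative settings. Without iECDC replicate 3 it was 1.36 (SE 0.0338, edgeR, adjusted p = 4.04e-13). With any other single library left out Hmox1 did not pass. edgeR then gave adjusted p = 0.127, 0.130 and 0.127 without pECDC replicates 1, 2 and 3, and 0.0962 and 0.115 without iECDC replicates 1 and 2.

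Of the glutathione genes, Gclm had 29.2, 30.7 and 30.5 FPKM in pECDCs and 49.5, 49.4 and 47.7 FPKM in iECDCs, a log2 fold change of 0.68 (SE 0.0582, edgeR, adjusted p = 0.000109). Its catalytic partner Gclc had 29.1, 31.2 and 29.5 FPKM in pECDCs and 31.2, 32.6 and 34.4 FPKM in iECDCs. The Gclc libraries touched between groups, and the log2 fold change of 0.11 (SE 0.0632) did not pass (edgeR, adjusted p = 0.254). In pECDCs the subunit genes were thus at overlapping levels, and in iECDCs all Gclm libraries were above all Gclc libraries. Slc7a11, the cystine carrier of the cystine-glutamate exchanger that feeds glutathione synthesis, had 1.01, 0.945 and 0.926 FPKM in pECDCs and 2.21, 2.11 and 1.27 FPKM in iECDCs. The log2 fold change was 0.95 (SE 0.187, edgeR, adjusted p = 0.00948), and without pECDC replicate 3 it was 0.92 (edgeR, adjusted p = 0.0525). Without iECDC replicate 3 it was 1.16 (SE 0.0772, edgeR, adjusted p = 2.51e-08). Slc7a11, Gclm and Txnrd1 overlap other annotated genes, some of them on the opposite strand, and Nfe2l2 overlaps a small nuclear RNA gene, Gm24996, on its own strand. Transcripts that overlap can share reads, and the sources used here do not say whether counting used the strand, so that part of their counts is uncertain.

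Of the thioredoxin branch, Txnrd1, the cytosolic thioredoxin reductase, had 180, 176 and 174 FPKM in pECDCs and 260, 276 and 269 FPKM in iECDCs, a log2 fold change of 0.59 (SE 0.0621, edgeR, adjusted p = 0.000384). Srxn1, which repairs over-oxidized peroxiredoxins, had 70.4, 68.2 and 66.6 FPKM in pECDCs and 103, 113 and 126 FPKM in iECDCs, a log2 fold change of 0.72 (SE 0.0793, edgeR, adjusted p = 0.000475). Neither gene's groups overlapped, and iECDC replicate 3 was at the upper end for Srxn1, in contrast to Hmox1.

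Of the secreted enzymes, Gpx3 had 11.4, 10.9 and 11.9 FPKM in pECDCs and 0.437, 0.940 and 0.646 FPKM in iECDCs, a log2 fold change of -4.11 (SE 0.193, edgeR, adjusted p = 3.03e-06). It passed under all 15 alternative settings. Sod3, the extracellular superoxide dismutase, had 12.97, 14.1 and 15.4 FPKM in pECDCs and 17.7, 16.4 and 12.2 FPKM in iECDCs. The Sod3 groups overlapped through iECDC replicate 3, and the log2 fold change was 0.11 (SE 0.131, edgeR, adjusted p = 0.592). Without that library it was 0.26 (SE 0.0676, edgeR, adjusted p = 0.00805).

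These calls also depended on the spread that the fit assumed. With all 9 libraries in one fit, where the spread among SBT libraries enters, only Gpx3 of the 10 genes passed, although the log2 fold changes hardly moved. Hmox1 was the only one of the 10 genes for which iECDC replicate 3 was at least 2-fold below both other iECDC libraries, which held for 1.81% of all genes, and for 0 of the 10 was it at least 2-fold above both (0.797% of all genes).

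**Figure D2:**
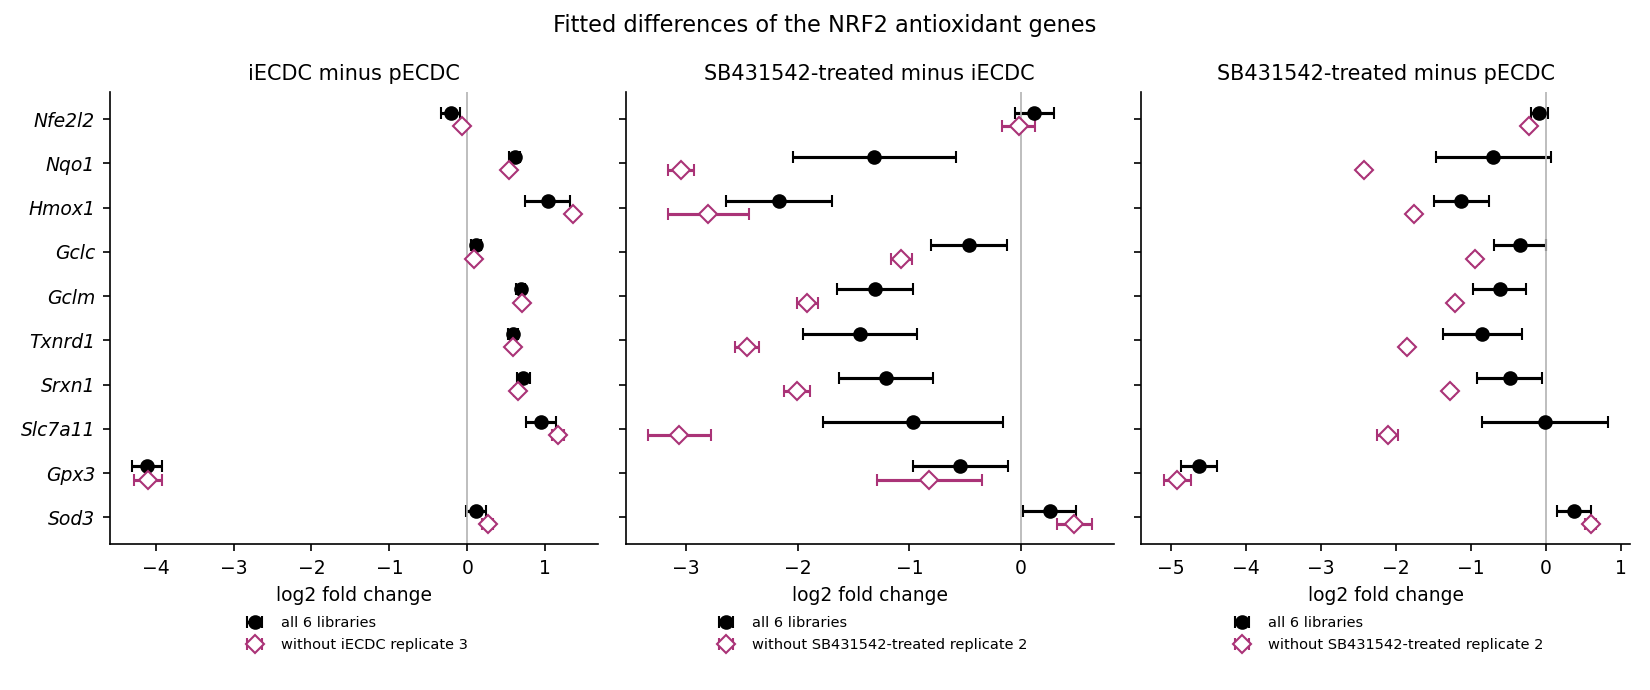
Log2 fold changes (horizontal axes) of the 10 genes in the 3 comparisons, with bars of 1 SE from edgeR. Black circles are the fits of all 6 libraries, and open diamonds the fits without iECDC replicate 3 (left) or SBT replicate 2 (middle and right). Without SBT replicate 2 the differences of Nqo1, Txnrd1 and Slc7a11 from iECDCs are -3.05, -2.46 and -3.06, and their SE bars are shorter.

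Comparing SBT cells with iECDCs asks what differs after SB431542 treatment, if the labels name the treated cells correctly. Hmox1 and Gclm were lower in SBT cells, by 4.50-fold and 2.48-fold, and the other 8 genes did not pass. Against 14.0% of all 13559 genes tested that were lower and 16.0% that were higher, 2 of the 10 genes were lower and 0 higher, and 30.0% of all genes passed. The libraries did not overlap for Hmox1, Gclm, Txnrd1 and Srxn1, 4 of the 10, and for 46.5% of all genes. For 7 of the 10 genes the SBT group was split. Replicates 1 and 3 were alike and low, and replicate 2 was at least 2-fold above each of them, which held for 285 of all genes tested (2.10%). These 7 genes were Nqo1, Hmox1, Gclc, Gclm, Txnrd1, Srxn1 and Slc7a11. For 0 of the 10 genes was SBT replicate 2 at least 2-fold below both others, which held for 4.25% of all genes. SBT replicate 2 lay within the range of the iECDC libraries for 2 of the 10, Nqo1 and Gpx3, and for 33.3% of all genes.

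For Nqo1 the SBT libraries had 31.5, 250 and 31.4 FPKM, so that replicate 2 was inside the iECDC range of 245 to 289 FPKM and 7.95-fold above the mean of the other SBT libraries. Slc7a11 had 0.254, 2.38 and 0.191 FPKM, with replicate 2 above all iECDC libraries and 10.7-fold above the mean of the others. Txnrd1 had 46.2, 198 and 50.9 FPKM, and Srxn1 29.0, 90.1 and 27.3 FPKM, with replicate 2 below the iECDC libraries and above the pECDC libraries in both. Gclc had 14.98, 39.7 and 15.9 FPKM, again with replicate 2 above all iECDC libraries. Gclm had 13.1, 33.0 and 12.7 FPKM, and Hmox1 90.7, 243 and 92.7 FPKM, and for both all 3 SBT libraries were below all iECDC libraries. With all 6 libraries the log2 fold changes of these 7 genes were between -2.17 and -0.47. Hmox1 (-2.17, SE 0.476, edgeR, adjusted p = 0.0130) and Gclm (-1.31, SE 0.342, edgeR, adjusted p = 0.0238) passed. Txnrd1 (-1.44, SE 0.510) and Srxn1 (-1.21, SE 0.422) did not overlap between the groups but missed the threshold (edgeR, adjusted p = 0.0643 and 0.0608). Nqo1 (-1.32, SE 0.730), Slc7a11 (-0.97, SE 0.807) and Gclc (-0.47, SE 0.338) had edgeR adjusted p = 0.200, 0.388 and 0.322.

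Leaving out SBT replicate 2 changed most of these calls. This setting is 1 of the leave-one-out fits, and it is shown because that library stood apart over all genes, these genes among them. The log2 fold changes were then -3.05 for Nqo1 (SE 0.115, edgeR, adjusted p = 2.29e-07), -3.06 for Slc7a11 (SE 0.283, edgeR, adjusted p = 3.68e-05) and -2.80 for Hmox1 (SE 0.365, edgeR, adjusted p = 0.000261). They were -2.46 for Txnrd1, -2.01 for Srxn1, -1.91 for Gclm and -1.07 for Gclc, and all 4 passed. So 7 of the 10 genes were lower and 1, Sod3, was higher, beside 24.8% and 25.3% of all genes in the same fit (50.2% together). With iECDC replicate 3 left out as well, 8 of the 10 were lower and 1 higher, beside 31.9% and 32.6% of all genes (64.5% together), and Nfe2l2 was then among the lower genes (-0.17, edgeR, adjusted p = 0.0279). In the other direction, the Hmox1 call was lost without iECDC replicate 1 (edgeR, adjusted p = 0.0539), and the Gclm call without iECDC replicate 1, 2 or 3 and without SBT replicate 1 or 3 (edgeR, adjusted p = 0.0773, 0.0717, 0.0609, 0.0808 and 0.0700). Of the 10 genes 0 passed without iECDC replicate 1, and 1 passed without iECDC replicate 2 or 3 or SBT replicate 1 or 3.

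Nfe2l2 itself was not split by 2-fold. Its SBT libraries had 48.3, 63.9 and 49.8 FPKM, overlapping the iECDC libraries, with replicate 2 the highest of all 9 libraries. The log2 fold change of 0.12 (SE 0.173) did not pass (edgeR, adjusted p = 0.628) and had the other sign without SBT replicate 2 (-0.024) or without iECDC replicate 3 (-0.042). Gpx3 had 0.503, 0.603 and 0.244 FPKM in SBT cells and stayed near the iECDC level, at a log2 fold change of -0.54 (SE 0.425, edgeR, adjusted p = 0.357). Sod3 had 23.2, 12.1 and 19.5 FPKM, with replicate 2 the lowest of all 9 libraries and replicates 1 and 3 the highest. Its log2 fold change was 0.25 (SE 0.241, edgeR, adjusted p = 0.447), and 0.48 (SE 0.156, edgeR, adjusted p = 0.0301) without SBT replicate 2.

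Of the 4 TGF-β target genes described here, which are all known to be induced by TGF-β, 3 were lower in every SBT library than in every iECDC library. These 3 were Ctgf, Smad7 and Skil. Ctgf had 431 to 459 FPKM in iECDCs and 27.4, 70.9 and 30.7 FPKM in SBT replicates 1, 2 and 3. Replicate 2 was thus far below the iECDC libraries, but 2.44-fold above the mean of the other SBT libraries. Smad7 had 33.5 to 35.3 FPKM in iECDCs and 8.16, 14.0 and 7.49 FPKM in the SBT libraries. The remaining target gene, Tgfbi, went the other way and was higher in SBT libraries, at 9.995, 2.06 and 8.98 FPKM against 0.518 to 0.661 FPKM in iECDCs. The part of TGF-β signalling in the split of the SBT libraries was not tested.

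**Figure D3:**
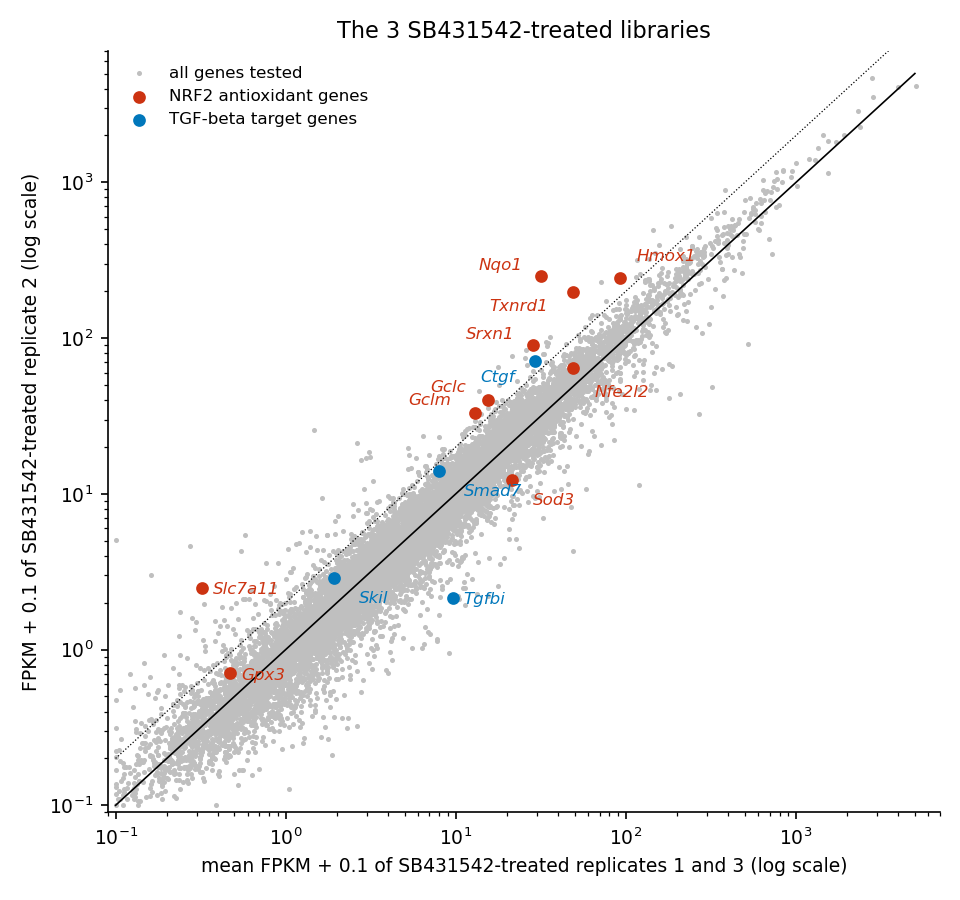
FPKM + 0.1 of SBT replicate 2 (vertical, log scale) against the mean FPKM + 0.1 of SBT replicates 1 and 3 (horizontal, log scale) for all 13559 genes tested (grey), the 10 NRF2 antioxidant genes (red) and 4 TGF-β target genes (blue). The solid line marks equal levels and the dotted line a 2-fold higher level in replicate 2, and 7 of the red points lie above the dotted line, with Nfe2l2, Gpx3 and Sod3 below it.

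Comparing SBT cells with pECDCs serves the study's own naming of treated cells, if that naming refers to these libraries. The comparison shares the SBT libraries with the one above and the pECDC libraries with the first. Gpx3 was the gene that passed, 24.7-fold lower in SBT cells (log2 fold change -4.63, SE 0.236, edgeR, adjusted p = 8.02e-05). Of the 10 genes 1 was lower and 0 higher, beside 17.0% and 17.9% of all 14015 genes tested (34.8% together). The libraries did not overlap for 2 of the 10, Gpx3 and Hmox1, and for 51.5% of all genes. For Gpx3 all SBT libraries were at or below 0.603 FPKM, against at least 10.9 FPKM in pECDCs. Hmox1 did not overlap between the groups but missed the threshold (-1.13, SE 0.368, edgeR, adjusted p = 0.0508). Nqo1 (-0.70, SE 0.766), Txnrd1 (-0.84, SE 0.530), Srxn1 (-0.48, SE 0.435) and Slc7a11 (-0.013, SE 0.838) had SBT replicates 1 and 3 below and replicate 2 above all pECDC libraries, and they did not pass (edgeR, adjusted p = 0.509, 0.253, 0.422 and 0.992). The same order held for Gclm (-0.61, SE 0.352) and Gclc (-0.34, SE 0.352), which did not pass either (edgeR, adjusted p = 0.213 and 0.483). Without SBT replicate 2, 9 of the 10 genes were lower and Sod3 was higher (0.60, SE 0.0726), beside 32.3% and 31.7% of all genes (64.1% together). In that fit Nqo1 was at -2.42 (SE 0.0491), Slc7a11 at -2.10 (SE 0.140), Txnrd1 at -1.86 (SE 0.0497), Hmox1 at -1.75 (SE 0.0452) and Nfe2l2 at -0.22 (SE 0.0431).

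The other genes of the pathway were taken from 7 lists with 78 genes. Between iECDCs and pECDCs 75 were tested, and 20 were higher (26.7%, beside 7.21% of all genes tested) and 5 lower (6.67%, beside 9.21%), with a median log2 fold change of 0.12. Without iECDC replicate 3, 30 were higher and 12 lower (beside 15.5% and 16.2% of all genes), and without pECDC replicate 1, 2 or 3 the number that passed fell from 25 to 16, 14 and 16. Glutathione genes gave 4 higher and 2 lower of 23, thioredoxin and peroxiredoxin genes 3 higher of 11, NADPH supply genes 3 higher of 6, heme and iron genes 2 higher of 7, detoxification genes 5 higher and 2 lower of 13, the superoxide and peroxide enzymes 1 higher of 3, and regulators of NRF2 2 higher and 1 lower of 12. The largest increases among genes with at least 5 FPKM were those of Gsta3, a glutathione S-transferase (log2 fold change 1.22, SE 0.0922), Maff, a small MAF partner of NRF2 (0.79, SE 0.0570), Abcc1, an exporter of glutathione conjugates (0.56, SE 0.101), Pgd, an NADPH-producing enzyme of the pentose phosphate pathway (0.55, SE 0.0697), Osgin1 (0.53, SE 0.104) and the exporter Abcc4 (0.49, SE 0.0853). The genes that fell by this rule were Aldh1a1, an aldehyde dehydrogenase (-0.77, SE 0.0628), and the microsomal glutathione transferase Mgst1 (-0.46, SE 0.0878). These 8 genes passed under 13 or 14 of the 15 alternative settings. All 8 missed the threshold with all 9 libraries in one fit (edgeR, adjusted p from 0.0586 to 0.454), Mgst1 also without pECDC replicate 3 and Osgin1 also without pECDC replicate 2 (edgeR, adjusted p = 0.0540 and 0.0546).

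Between SBT cells and iECDCs 74 of the 78 were tested, and 14 were higher and 9 lower, with a median of -0.11. The share that passed, 31.1%, was close to the 30.0% of all genes. DESeq2 gave 14 higher and 15 lower. Without SBT replicate 2, 19 were higher and 33 lower of 75 tested (25.3% and 44.0%, beside 25.3% and 24.8% of all genes). The number that passed fell from 23 to 11 without iECDC replicate 1 or 2 and to 10 without SBT replicate 1 or 3. Here the lists did not move one way. Among glutathione genes 6 of 22 were higher, among them the transferases Mgst3 (1.59, SE 0.302), Mgst1 (1.39, SE 0.167), Gstm1 (1.28, SE 0.318) and Gstm2 (0.88, SE 0.212), and 4 were lower, among them the peroxidase Gpx8 (-0.93, SE 0.178), Abcc1 (-0.91, SE 0.275) and Slc3a2, the partner chain of SLC7A11 (-0.53, SE 0.149). Of the detoxification genes Aldh1a1 was higher (1.39, SE 0.264), and Akr1b3, an aldose reductase, was lower (-0.63, SE 0.185). Thioredoxin itself, Txn1, was lower (-0.68, SE 0.194), as was the malic enzyme Me1 (-0.53, SE 0.133). Mgst3, Mgst1, Aldh1a1 and Gpx8 passed under all 16 alternative settings, and the other genes named under 11 or 12. Each of these others missed the threshold without SBT replicate 1 or 3 and without iECDC replicate 1 or 2, and all but Gstm2 also without iECDC replicate 3 (edgeR, adjusted p from 0.0511 to 0.131).

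Between SBT cells and pECDCs 75 of the 78 were tested, and 17 were higher and 6 lower, with a median of -0.0075. The share that passed, 30.7%, was below the 34.8% of all genes. Without SBT replicate 2, 26 were higher and 33 lower (34.7% and 44.0%, beside 31.7% and 32.3% of all genes), and without pECDC replicate 1, 2 or 3 the number that passed fell from 23 to 9, 10 and 11. The transferases Gstm1 (1.49, SE 0.321), Gstm2 (0.97, SE 0.209) and Mgst1 (0.94, SE 0.156), the NADPH-producing G6pdx (0.99, SE 0.141), Osgin1 (0.98, SE 0.310) and Bach1 (0.80, SE 0.212) were higher in SBT cells. Osgin1 was at 0.48 (SE 0.0729) without SBT replicate 2. Gpx8 (-0.71, SE 0.142), the omega-class transferase Gsto1 (-0.67, SE 0.196), Txn1 (-0.57, SE 0.183), Me1 (-0.34, SE 0.107) and catalase, Cat (-0.30, SE 0.0858), were lower. G6pdx, Mgst1 and Gpx8 passed under all 15 alternative settings, and Txn1 under 7. The others passed under 9 to 12, and they and Txn1 missed the threshold without pECDC replicate 1, 2 or 3 (edgeR, adjusted p from 0.0517 to 0.139). Bach1, Cat, Gsto1, Me1 and Txn1 also missed it without SBT replicate 1 or 3 (edgeR, adjusted p from 0.0799 to 0.141).

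The split of the SBT group was also looked for in these lists. For 7 of 74 pathway genes, Abcc4, Cbr3, Esd, Gsta3, Gsta4, Osgin1 and Taldo1, SBT replicate 2 was at least 2-fold above each other SBT library, beside 2.10% of all genes. Taldo1, the transaldolase of the pentose phosphate pathway, had 117, 319 and 116 FPKM in SBT libraries and 315 to 323 FPKM in iECDCs. Abcc4 had 7.84, 23.2 and 7.91 FPKM in SBT libraries and 22.8 to 28.8 FPKM in iECDCs. For both genes replicate 2 was within the iECDC range, which held for 30 of 74 pathway genes and for 33.3% of all genes. For Aldh1a1, Gstm1 and Mgst3, 3 of 74, the split was the other way, which was near the 4.25% of all genes, with Gstm1 at 153, 59.8 and 139 FPKM in SBT libraries and 40.5 to 53.9 FPKM in iECDCs.

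**Figure D4:**
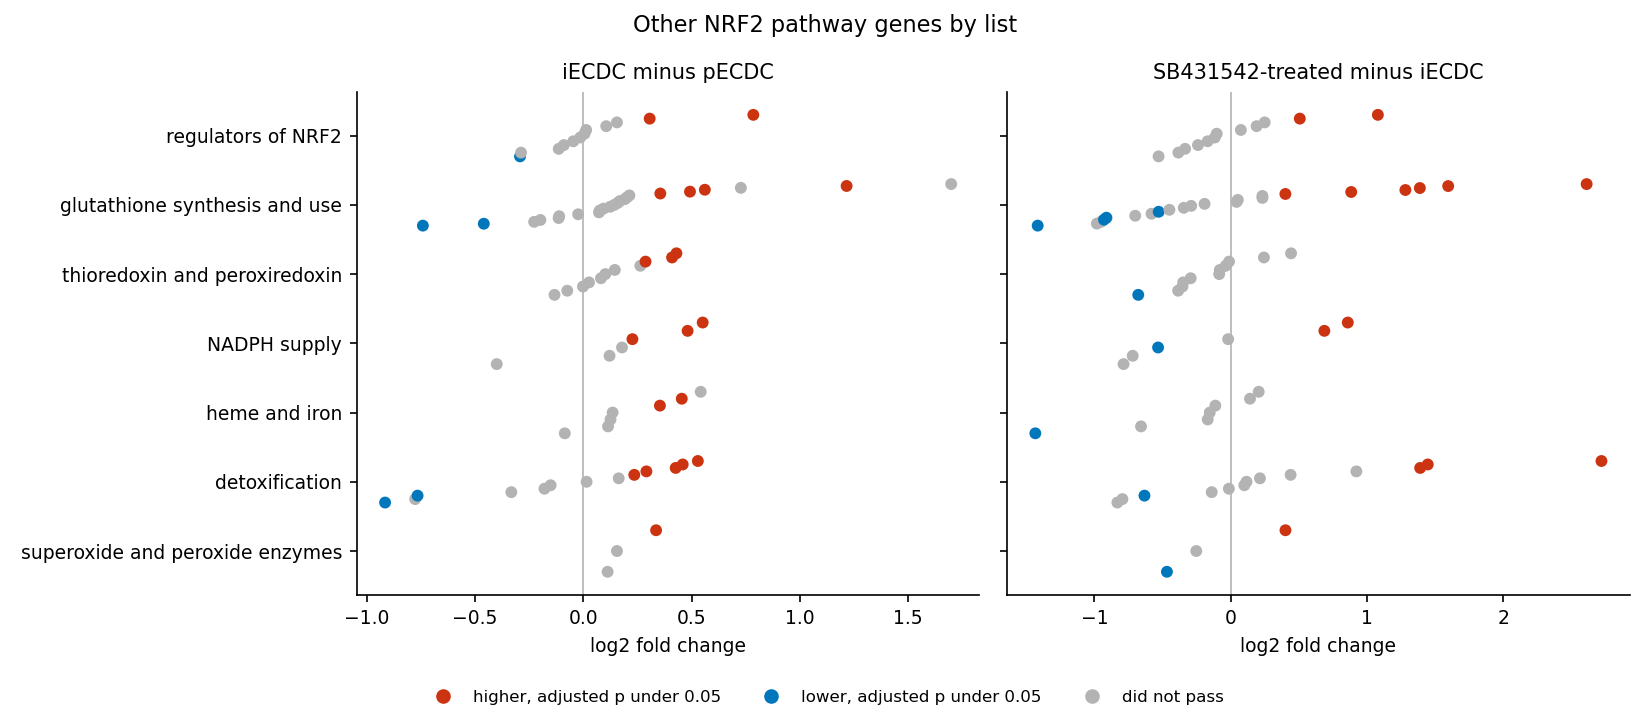
Log2 fold changes (horizontal axes) of the other NRF2 pathway genes tested, 75 between iECDCs and pECDCs (left) and 74 between SBT cells and iECDCs (right), in 7 lists. Each point is a gene, red where higher and blue where lower with an edgeR adjusted p under 0.05, and points of a list are spread vertically by rank only. On the left 20 points are red and 5 blue, and on the right 14 are red and 9 blue.

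Among the regulators, Keap1, the repressor, had 14.8, 15.1 and 14.99 FPKM in pECDCs, 12.9, 13.2 and 15.8 FPKM in iECDCs and 20.4, 18.8 and 19.8 FPKM in SBT cells. All SBT libraries were thus above all others, including replicate 2, by a log2 fold change of 0.51 from iECDCs (SE 0.110, edgeR, adjusted p = 0.0125) and 0.40 from pECDCs (SE 0.0646, edgeR, adjusted p = 0.00408). The difference from iECDCs passed under 12 of 16 alternative settings and not without SBT replicate 1 or 3 or iECDC replicate 1 or 2 (edgeR, adjusted p from 0.0502 to 0.0671). Bach1, the competing repressor, had 4.51, 5.11 and 5.18 FPKM in pECDCs, 3.78, 4.33 and 4.14 FPKM in iECDCs and 9.85, 5.75 and 10.1 FPKM in SBT cells. SBT replicate 2 lay between the other SBT libraries and the iECDC libraries, and Bach1 was higher in SBT cells than in iECDCs (1.08, SE 0.210, edgeR, adjusted p = 0.00859) under all 16 alternative settings. Maff had 21.8, 38.8 and 19.99 FPKM in SBT libraries, with replicate 2 inside the iECDC range of 38.5 to 40.1 FPKM and the others below the pECDC range of 22.2 to 22.8 FPKM. It did not pass between SBT cells and iECDCs (-0.53, SE 0.230, edgeR, adjusted p = 0.114), and did without SBT replicate 2 (-0.89, edgeR, adjusted p = 6.73e-05). Mafg ranged from 13.9 to 18.2 FPKM and Mafk from 11.3 to 19.3 FPKM over all libraries, and neither passed in any of the 3 comparisons of all libraries. Sqstm1, which encodes the autophagy receptor p62 that binds KEAP1, was higher in iECDCs, at 174 to 184 FPKM, than in pECDCs, at 142 to 145 FPKM (0.31, SE 0.0589, edgeR, adjusted p = 0.00843), and had 135, 166 and 122 FPKM in SBT cells. The Sqstm1 difference missed the threshold without pECDC replicate 1 or 2 and with all 9 libraries in one fit (edgeR, adjusted p = 0.0572, 0.0676 and 0.160).

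For each of the 10 genes the gene with the most similar profile was taken from 14210 genes, as the smallest root mean square difference of log2 counts scaled to library size over the 9 libraries, each gene centred on its mean. The nearest gene to Srxn1 was Gclm (0.128), the only pair within the 10 genes. Gclm itself was closest to Rrm2, a ribonucleotide reductase subunit (0.115), Gclc to the ETS factor Etv5 (0.0989) and Txnrd1 to Ereg, an EGF receptor ligand (0.171). Nqo1 and Slc7a11 shared the nearest gene Gm7040, at differences of 0.249 and 0.340. Hmox1 was closest to Ptgs2os2 (0.192), Nfe2l2 to the growth factor Fgf7 (0.0761), Sod3 to Fuca2 (0.0879) and Gpx3 to Tspyl3 (0.247). Etv5, the nearest gene to Gclc, had 13.3 to 14.3 FPKM in pECDCs and 13.2 to 14.97 FPKM in iECDCs. It had 6.48 and 6.54 FPKM in SBT replicates 1 and 3 and 14.9 FPKM in replicate 2. Its pECDC and iECDC levels overlapped, whereas Rrm2 rose from 81.1 to 84.8 FPKM in pECDCs to 111 to 119 FPKM in iECDCs. The nearest genes thus did not share 1 shape. The 9 libraries are the only points, and 3 of them share each group.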

How the data were processed

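RNA sequencing libraries of pECDC, iECDC and SBT cells (3 each) were grouped by their labels. The authors deposited raw read counts per gene and FPKM values, and here FPKM was the count over gene length and a library constant, with 1 value of Pkm as the exception. The authors' fold changes and p-values, from DESeq per the study's methods, were deposited alongside and not used. The submitters' processing notes name Bowtie2 2.0.6, TopHat2 2.0.9 and build mm9, whereas 53462 of 54532 genes have the coordinates of GENCODE M21 on GRCm38. The counting program is not given in the sources used here. The library kit is given differently by the labels and the study's methods.

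Differences were tested on the counts by edgeR 4.0.16 under R 4.3.3 (TMM, filterByExpr with minimum count 10 and minimum total 15, quasi-likelihood test, Benjamini-Hochberg adjustment over all tested genes, threshold 0.05), with only the compared groups in the fit. The tests were checked on simulated counts, for iECDC against pECDC and SBT against iECDC only. No simulated library stood apart from its group, so the check does not cover that feature of these data. Alternatives were DESeq2 1.42.0, RLE or upper-quartile normalization, other count filters, all 9 libraries in one fit, the replicate number as a block, limma 3.58.1 on log2(FPKM + 1) or log2(FPKM + 0.1), a minimum log2 fold change of 1 and each library left out. Leaving out iECDC replicate 3 and SBT replicate 2 together was added after seeing the data. Depth was 16568306 to 23951392 counts per library, and intervals cover counting error only. The genes and lists were chosen with earlier results of these data known. Named pathway genes are fixed regulators and, per comparison, up to 6 in each direction with the largest change, adjusted p under 0.05, at least 5 FPKM and no overlap of libraries. Other pathway genes are named where SBT replicate 2 differed at least 2-fold from both others. Promoters came from RefSeq and were trimmed to hold no annotated exon of the gene. 1 gene of the TGF-β target list is not reported here.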

Additional observations from a re-analysis of the deposited data

How the results depend on the processing

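Normalization by RLE or upper quartile and DESeq2 left the number of the 10 genes that passed at 7, 2 and 1 for iECDC against pECDC, SBT against iECDC and SBT against pECDC. With all 9 libraries in one fit it was 1, 4 and 1, and 671 genes and 2 pathway genes passed between iECDC and pECDC. Without a filter on low counts 5 of the 10 passed for SBT against iECDC and 2 for SBT against pECDC, with 36 pathway genes for SBT against iECDC, and with at least 10 counts in every library 0 passed for SBT against pECDC, because Gpx3 was then not tested. limma on either log2 scale gave 6 of the 10 for iECDC against pECDC, 4 for SBT against iECDC and 2 for SBT against pECDC. Also requiring a log2 fold change of at least 1 left 512, 1434 and 1330 genes, 2, 2 and 1 of the 10 and 1, 10 and 3 pathway genes. With the replicate number as a block 7, 5 and 2 of the 10 passed, and 1791, 3038 and 3886 genes. Same-numbered libraries did not deviate together (correlations from -0.31 to 0.04). The strongest values, -0.22 and -0.31, involve SBT replicate 2 or iECDC replicate 3, which stood apart. These correlations therefore cannot show whether the numbers pair the libraries. With each library left out, between 5 and 8, 0 and 8, and 1 and 10 of the 10 passed, between 1036 and 4467, 1707 and 7001, and 2453 and 9188 genes, and between 14 and 42, 10 and 52, and 9 and 59 pathway genes. With iECDC replicate 3 and SBT replicate 2 both left out, 9 of the 10, 60 pathway genes and 8951 genes passed for SBT against iECDC. Signs turned for Nfe2l2 between SBT and iECDC (-0.042 without iECDC replicate 3, -0.024 without SBT replicate 2, -0.17 without both, and up to 0.21 without iECDC replicate 1) and for Slc7a11 between SBT and pECDC (0.021 without pECDC replicate 1, 0.43 and 0.46 without SBT replicates 1 and 3, and down to -2.10 without SBT replicate 2). The cause was not tested. The shares of promoters with a core were 10.2%, 35.2% and 0.390%, by the letters searched. With 3 libraries a group and 1 apart in 2 groups, the SBT comparisons limit what can be called, and Gpx3 and Slc7a11 rest on few reads.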
